A study of Mus musculus with 24 samples.

Results

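The 9 genes described here are 4 markers of formative pluripotency (Otx2, Fgf5, Pou3f1 and Zic2), the 3 genes of de novo DNA methylation (Dnmt3a, Dnmt3b and Dnmt3l) and a pair of DNA demethylation genes (Tet1 and Tet2). They were chosen by symbol, with earlier results of these data known. All 9 were found among the 26264 genes of the count table and passed the filter on low counts in every fit. RNA-seq was performed on mouse embryonic stem cells (ESCs), grown in serum and leukemia inhibitory factor (LIF) on gelatin, that carry an auxin-inducible degron (AID) on BAP1, a deubiquitinase of histone H2A, or on UTX, a demethylase of H3K27. Each line is a monoclonal derivative that stably overexpresses TIR1, so the control arm carries the tag and TIR1 as well. Both clones were collected without the auxin indole-3-acetic acid (−IAA) or with it (+IAA) at 0, 3, and 6 h of retinoic acid (RA), with 2 libraries in each of the 12 groups and 24 libraries in all. IAA was given before RA. RA was given in medium without LIF, so the effects of RA, of the loss of LIF and of time cannot be told apart. Nothing in the labels says that the 2 libraries of a group came from separate cultures, so the p-values measure the spread between libraries, which may be technical.

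Formative pluripotency is the state between naive ESCs and primed epiblast cells. Cells that enter it switch on Otx2 and Pou3f1, which redirect the shared pluripotency factors to new enhancers, together with the growth factor gene Fgf5. The enzymes DNMT3A and DNMT3B place new methyl groups on cytosine, helped by the catalytically inactive cofactor DNMT3L, and their activity rises as the naive state is left. TET1 and TET2 oxidize methylated cytosine and so act against DNA methylation, and Tet2 is the more naive-associated of the pair. RA promotes differentiation through nuclear receptors that bind repeats of a hexamer.

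The counts of a library summed to between 42018795 and 54034789, at which 3 counts, taken as the smallest detectable amount, equalled 0.0545 to 0.0693 CPM (the count of a gene relative to the scaled library total). Every member was above this floor in all 24 libraries, the lowest being Fgf5 with 13 counts in a +IAA library of UTX-AID ESCs at 6 h. The 8 ESC markers were all above 1 CPM, with summed levels of 4431 to 5509 CPM in BAP1-AID and 3916 to 4421 CPM in UTX-AID. The 6 primitive streak markers summed to 3.9 to 16.6 CPM and the 7 fibroblast markers to 2.48 to 13.7 CPM. The degron removes protein and not RNA, so the counts of the tagged genes do not check the IAA labels. Within a library, the Spearman correlation of a gene's level relative to its mean with the GC content of its transcript was 0.205 to 0.437 in −IAA BAP1-AID libraries and −0.475 to −0.236 in +IAA BAP1-AID libraries, and between −0.190 and 0.129 in UTX-AID. The comparison of the arms in BAP1-AID therefore also moves with GC content. Across genes, the log2 fold change correlated with GC content as well for RA 6 h against 3 h (Spearman −0.289) and against 0 h (−0.176) in BAP1-AID and between the clones at 0 h (−0.354), while in UTX-AID the RA comparisons lay between −0.0149 and −0.0044. Values corrected for GC content and transcript length (GC and length correction) are given where they change a call, and for the arms and the clones. The floor covers counting error only, while the intervals given with fold changes come from the edgeR fit and include the spread between libraries.

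Stretches upstream of annotated starts were read for Otx2 and Fgf5, the members that fell most under RA, and for Dnmt3a and Dnmt3b, which moved in opposite directions. RefSeq lists 14 starts for 7 of the 9 members (promoter table of GRCm38.p6, placed on GRCm39 by exact match). The 250 bases before each start were searched on both strands for the RA receptor hexamers AGGTCA (the consensus) and its variants GGGTCA (changed at the start), AGTTCA (changed inside) and GGTTCA (with both changes), of which a position can match only 1. A hexamer was found in 6 of the 14 windows (42.9%), against 38.6% of all 32851 RefSeq windows. Otx2 has 4 windows and Dnmt3a has 3, of which 1 each held a match and is shown. The window of Tet1 held 1 hexamer and 1 window of Dnmt3l held 2, and these are not shown. The printed stretches leave out bases of annotated exons, except for 30 bases around the hexamer of Fgf5, and capitals mark the hexamer. Each stretch lies inside the annotated span of its gene, so none is sequence upstream of the whole gene. They lie at chr14:48905102-48905351 on the minus strand for Otx2, chr5:98401857-98401886 on the plus strand for Fgf5, chr12:3941494-3941727 on the plus strand for Dnmt3a, and chr2:153491119-153491322 on the plus strand for Dnmt3b.
Otx2: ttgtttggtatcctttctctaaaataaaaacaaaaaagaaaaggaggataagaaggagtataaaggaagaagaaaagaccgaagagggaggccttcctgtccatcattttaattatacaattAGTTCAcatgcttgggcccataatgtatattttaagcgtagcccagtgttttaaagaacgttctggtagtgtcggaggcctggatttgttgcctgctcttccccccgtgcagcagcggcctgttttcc
Fgf5: cgctgggttgcaTGACCCgtgcacggtcgc
Dnmt3a: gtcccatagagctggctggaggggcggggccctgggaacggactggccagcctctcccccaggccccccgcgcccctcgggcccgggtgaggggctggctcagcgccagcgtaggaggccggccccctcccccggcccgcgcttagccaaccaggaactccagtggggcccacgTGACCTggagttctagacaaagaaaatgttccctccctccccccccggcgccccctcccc
Dnmt3b: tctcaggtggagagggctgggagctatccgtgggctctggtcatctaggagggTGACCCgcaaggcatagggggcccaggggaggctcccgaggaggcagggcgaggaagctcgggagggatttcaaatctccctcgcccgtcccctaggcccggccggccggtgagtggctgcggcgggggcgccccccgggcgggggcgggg

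A hexamer match is a description of letters and not a binding site. The only window of Tet2 held no match, and 83.6% of its bases were G or C with 51 CpG dinucleotides, the highest count among the 14 windows. The 3 windows of Dnmt3l held 3 to 5 CpG, against a median of 6 over all windows. The windows of Pou3f1 and Zic2 were not analysed here.

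The formative markers Otx2 and Fgf5 fell within 3 h of RA in both clones and fell further by 6 h, Pou3f1 had fallen by 6 h, and Zic2 dipped at 3 h and returned. Otx2 encodes a homeodomain factor and lies on chromosome 14 (48894099 to 48911276, mm39, minus strand). In −IAA BAP1-AID ESCs the 2 libraries held 159.8 and 176.8 CPM at 0 h, 49.0 and 60.0 CPM at 3 h, and 35.4 and 36.5 CPM at 6 h. With IAA they held 175.3 and 180.3 CPM, then 54.2 and 57.7 CPM, then 29.6 and 27.5 CPM. Levels in UTX-AID ESCs were lower from the start, at 35.1 and 42.8 CPM (−IAA) and 43.2 and 44.5 CPM (+IAA). They went to 8.08, 9.62, 7.91 and 9.74 CPM at 3 h and to 5.43, 3.50, 3.20 and 4.26 CPM at 6 h, in the same order of libraries. The 4 libraries of a time did not overlap those of another time in either clone. At 3 h, Otx2 had fallen 3.14-fold in BAP1-AID (log2 fold change −1.65, SE 0.07, edgeR adjusted p = 6.07e-09) and 4.65-fold in UTX-AID (−2.22, SE 0.12, edgeR adjusted p = 9.02e-09). At 6 h it was 5.39-fold lower in BAP1-AID (−2.43, SE 0.07, edgeR adjusted p = 1.69e-10) and 10.1-fold lower in UTX-AID (−3.34, SE 0.13, edgeR adjusted p = 1.49e-10).

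Fgf5, a secreted growth factor gene on chromosome 5 (98401780 to 98452320, plus strand) with no annotated gene overlapping it, was the lowest of the 9 members by CPM. It measured 16.1 and 18.1 CPM in −IAA BAP1-AID at 0 h, 5.73 and 8.72 CPM at 3 h, and 2.28 and 2.58 CPM at 6 h. The +IAA libraries held 18.4 and 17.4 CPM, 6.11 and 7.67 CPM, and 1.91 and 2.47 CPM. In UTX-AID ESCs the −IAA libraries held 3.80 and 5.86 CPM, 0.993 and 2.33 CPM, and 0.706 and 0.623 CPM. The +IAA libraries of that clone held 4.24 and 2.93 CPM, 1.38 and 1.69 CPM, and 0.247 and 0.661 CPM, so the last pair differed 2.67-fold on 13 and 32 counts. All 3 times were apart in each clone. Fgf5 fell 7.58-fold by 6 h in BAP1-AID (log2 fold change −2.92, SE 0.15, edgeR adjusted p = 2.98e-08) and 7.53-fold in UTX-AID (−2.91, SE 0.32, edgeR adjusted p = 9.03e-06), from 2.49-fold and 2.59-fold at 3 h.

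Pou3f1, which encodes the POU factor OCT6 (chromosome 4, 124550600 to 124554448, plus strand), fell from 3 to 6 h in both clones. Its 4 libraries at each time spanned 143.9 to 160.6, 133.4 to 141.6, and 75.8 to 87.1 CPM in BAP1-AID and 36.5 to 48.9, 31.0 to 49.2, and 23.1 to 27.2 CPM in UTX-AID. The 3 h libraries lay below the 0 h libraries in BAP1-AID and overlapped them in UTX-AID. The log2 fold change at 3 h was −0.12 (95% interval −0.23 to −0.01, edgeR adjusted p = 0.187) in BAP1-AID and −0.13 (SE 0.11, edgeR adjusted p = 0.625) in UTX-AID, and with GC and length correction it passed in BAP1-AID (−0.22, edgeR adjusted p = 0.00459). At 6 h it had fallen 1.80-fold in BAP1-AID (edgeR adjusted p = 1.57e-07) and 1.61-fold in UTX-AID (edgeR adjusted p = 0.000593). The −IAA UTX-AID libraries at 3 h held 31.0 and 49.2 CPM, and without the second of these, the change at 3 h passed the test in that clone (log2 fold change −0.31, edgeR adjusted p = 0.0482).

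Zic2 encodes a zinc finger factor that occupies enhancers of ESCs (chromosome 14, 122711827 to 122717264, plus strand). Its libraries spanned 171.6 to 191.5 CPM at 0 h, 133.6 to 148.1 CPM after 3 h and 158.0 to 174.1 CPM after 6 h in BAP1-AID, and 44.5 to 52.5, 30.3 to 39.1, and 46.0 to 53.2 CPM in UTX-AID. The 3 h libraries lay below all others in each clone. Zic2 fell 1.28-fold at 3 h in BAP1-AID (edgeR adjusted p = 0.000384) and 1.44-fold in UTX-AID (edgeR adjusted p = 4.12e-05), and it rose again from 3 to 6 h by 0.26 (edgeR adjusted p = 0.00850) and 0.52 (edgeR adjusted p = 0.000471) on the log2 scale. The rise in BAP1-AID missed the threshold without the first +IAA library of 3 h (0.23, edgeR adjusted p = 0.0546). At 6 h against 0 h the change was −0.10 (SE 0.05, edgeR adjusted p = 0.181) in BAP1-AID and −0.00069 (edgeR adjusted p = 1) in UTX-AID.

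**Figure D1:**
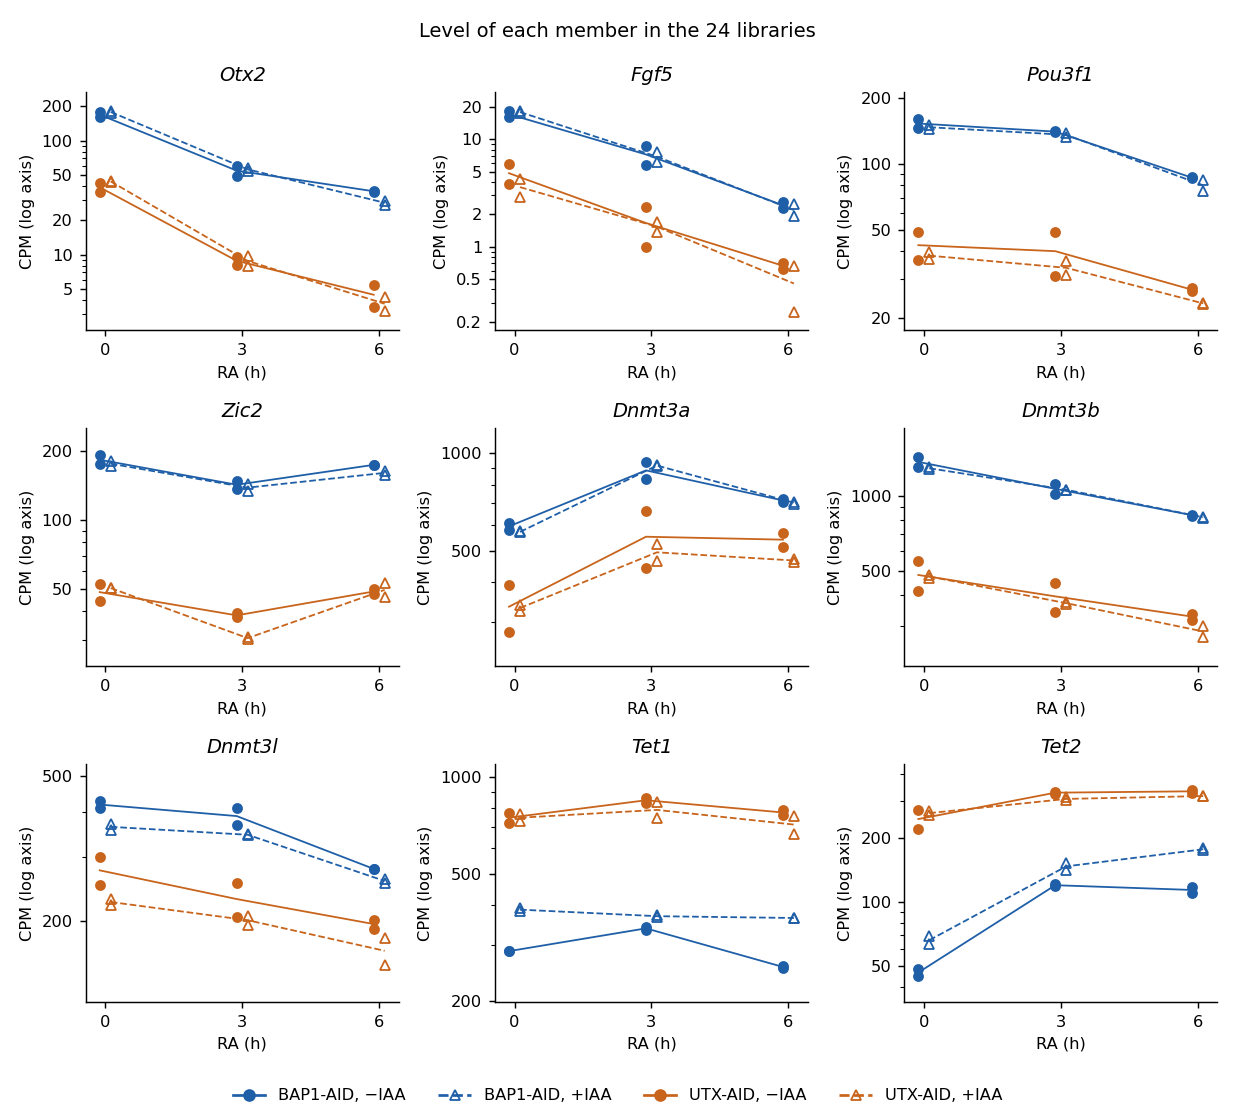
Level of each of the 9 members in CPM (log axis) against hours of RA, with a point per library and lines through the means of the 2 libraries of a group. Otx2 and Fgf5 descend at every step, Zic2 is lowest at 3 h, Dnmt3a and Tet2 are above their 0 h level at 3 and 6 h, and the clones are apart for all 9 genes.

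Dnmt3a and Dnmt3b moved in opposite directions under RA. Dnmt3a (chromosome 12, 3856007 to 3964443, plus strand) measured 578 and 611 CPM in −IAA BAP1-AID at 0 h, 832 and 938 CPM at 3 h, and 721 and 708 CPM at 6 h. With IAA the libraries held 569.7 and 573 CPM, 921 and 911 CPM, and 708 and 699 CPM. In UTX-AID the −IAA libraries held 280.1 and 391 CPM, 442 and 662 CPM, and 514 and 568 CPM, and the +IAA libraries held 325 and 339.9 CPM, 465 and 523 CPM, and 463 and 469.9 CPM. The libraries at 3 and 6 h lay above those at 0 h in both clones, and in UTX-AID the −IAA replicates at 3 h differed 1.50-fold. Dnmt3a rose 1.54-fold by 3 h in BAP1-AID (log2 fold change 0.62, SE 0.04, edgeR adjusted p = 9.83e-07) and 1.57-fold in UTX-AID (0.65, SE 0.10, edgeR adjusted p = 0.000473). From 3 to 6 h it came down again in BAP1-AID (−0.34, SE 0.04, edgeR adjusted p = 0.000739), and the change in UTX-AID was −0.06 (SE 0.10, edgeR adjusted p = 0.917). At 6 h it was 1.22-fold and 1.51-fold above 0 h (edgeR adjusted p = 0.000468 and 0.000718).

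Dnmt3b (chromosome 2, 153490861 to 153529650, plus strand) was the highest member by CPM in BAP1-AID. Its −IAA libraries there held 1301 and 1432 CPM at 0 h, 1018 and 1114 CPM at 3 h, and 832 and 840.0 CPM at 6 h, and its +IAA libraries 1275 and 1303, 1058 and 1056, and 825 and 816 CPM. In UTX-AID the −IAA libraries held 414 and 549 CPM, 344 and 447 CPM, and 337 and 319 CPM, and the +IAA libraries 469.9 and 480.1, 367 and 375, and 301 and 270.7 CPM. The 3 times were apart in BAP1-AID, while the 0 and 3 h libraries overlapped in UTX-AID. Dnmt3b fell 1.25-fold by 3 h and 1.60-fold by 6 h in BAP1-AID (edgeR adjusted p = 0.000223 and 2.04e-07), and 1.24-fold and 1.55-fold in UTX-AID (edgeR adjusted p = 0.0190 and 2.91e-05). In UTX-AID the call at 3 h was lost without any of 4 libraries, the second at 0 h and the first at 3 h of the −IAA arm and the second at 0 h and the first at 3 h of the +IAA arm, where the log2 fold change was −0.31 to −0.21 and the edgeR adjusted p was 0.0528 to 0.0714. Dnmt3c, a paralog of Dnmt3b, was not analysed here, and how reads that match both would be counted is not given in the sources used here.

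Dnmt3l (chromosome 10, 77877781 to 77899456, plus strand) had fallen by 6 h in both clones. Its libraries spanned 355.7 to 428 CPM at 0 h, 344 to 409.9 CPM after 3 h, and 255 to 279 CPM after 6 h in BAP1-AID, and 222 to 299.6, 195 to 254, and 152 to 202 CPM in UTX-AID. The log2 fold change at 3 h was −0.09 (SE 0.05, edgeR adjusted p = 0.271) and −0.21 (SE 0.07, 95% interval −0.35 to −0.06, edgeR adjusted p = 0.0842). By 6 h it had fallen 1.45-fold in BAP1-AID (edgeR adjusted p = 2.53e-06) and 1.38-fold in UTX-AID (edgeR adjusted p = 0.000199). Whether the change at 3 h passed depended on the setting in both clones. In BAP1-AID it passed without the first −IAA library of 3 h (log2 fold change −0.13, edgeR adjusted p = 0.0173). It also passed there with GC and length correction (−0.17, edgeR adjusted p = 0.00269). In UTX-AID it passed with GC and length correction (−0.23, edgeR adjusted p = 0.0370) and with DESeq2 (−0.21, adjusted p = 0.0244). It passed in that clone as well without the first −IAA library of 0 h (−0.26, edgeR adjusted p = 0.0260) or the second of 3 h (−0.28, edgeR adjusted p = 0.0132).

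Tet2 rose under RA in both clones, and Tet1 changed by less than Tet2 at every step against 0 h. Tet2 (chromosome 3, 133169436 to 133250900, minus strand) measured 48.4 and 45.0 CPM in −IAA BAP1-AID at 0 h, 121 and 119 CPM at 3 h, and 118 and 111 CPM at 6 h. The +IAA libraries of that clone held 63.4 and 69.1 CPM, 142 and 153 CPM, and 179 and 176 CPM. In UTX-AID ESCs Tet2 started higher, at 270.8 and 222 CPM (−IAA) and 269 and 257 CPM (+IAA), and reached 332, 324, 312 and 301 CPM at 3 h and 338, 328, 316 and 317 CPM at 6 h. All libraries with RA lay above all libraries without it in each clone. At 3 h, Tet2 had risen 2.39-fold in BAP1-AID (log2 fold change 1.26, SE 0.05, edgeR adjusted p = 6.36e-09) and 1.25-fold in UTX-AID (0.32, SE 0.05, edgeR adjusted p = 0.000906). Averaged over the arms, the change from 3 to 6 h was 0.10 (SE 0.05, edgeR adjusted p = 0.267) and 0.03 (SE 0.05, edgeR adjusted p = 0.910). Fitted alone, the +IAA arm of BAP1-AID gave 0.27 (edgeR adjusted p = 0.00192) and the −IAA arm −0.07 (edgeR adjusted p = 0.800) for this step, and the difference between the arms was not tested.

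Tet1 (chromosome 10, 62640349 to 62744775, minus strand) measured 287 and 286 CPM in −IAA BAP1-AID at 0 h, 341 and 333 CPM at 3 h, and 253 and 258 CPM at 6 h, and 381 and 390.2, 371 and 365, and 362 and 364 CPM with IAA. Its 12 libraries in UTX-AID lay between 665 and 864 CPM. The arms of BAP1-AID were apart at every time, while the RA times overlapped when the arms were pooled. Within each arm the RA times were apart, narrowly so between 3 and 6 h with IAA. From 3 to 6 h the log2 fold change in BAP1-AID was −0.20 (SE 0.04, edgeR adjusted p = 0.00635). Tet1 fell 1.09-fold between 0 and 6 h in BAP1-AID (log2 fold change −0.12, SE 0.04, edgeR adjusted p = 0.0330), a call that was lost without any of 6 libraries (−0.15 to −0.12, edgeR adjusted p = 0.0571 to 0.0727), namely the 2 −IAA libraries of 0 h, the first −IAA library of 6 h, the second +IAA library of 0 h and the 2 +IAA libraries of 6 h. With GC and length correction it was −0.22 (edgeR adjusted p = 0.00292). In UTX-AID the change at 6 h was −0.0013 (edgeR adjusted p = 0.998).

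Counted over the 9 members at 3 h, 2 rose and 4 fell in BAP1-AID, where 7.26% of all 15695 genes tested rose and 3.91% fell, and 2 rose and 4 fell in UTX-AID, where 5.51% of 16268 genes rose and 2.75% fell. They were the same genes in both clones: Dnmt3a and Tet2 rose, and Otx2, Fgf5, Zic2 and Dnmt3b fell. At 6 h, 2 rose and 6 fell in BAP1-AID (14.4% and 9.67% of all genes), and 2 rose and 5 fell in UTX-AID (6.92% and 5.52% of all genes). With a log2 fold change over 1 in size as well, Tet2 alone rose in BAP1-AID (3.56% of all genes did) and no member rose in UTX-AID (1.97%), while Otx2 and Fgf5 fell in both (1.56% and 0.639%). Between 3 and 6 h, 1 member rose and 7 fell in BAP1-AID (4.33% and 3.82% of all genes), and 1 rose and 3 fell in UTX-AID (0.639% and 1.03%). The median log2 fold change of the members at 6 h was −0.54 (BAP1-AID) and −0.46 (UTX-AID clone), against 0.0092 and −0.0012 over all genes tested. With GC and length correction, the higher and lower calls over all genes went from 1140 and 614 to 1103 and 1093 at 3 h in BAP1-AID, from 2256 and 1517 to 1734 and 2177 at 6 h, and from 896 and 447 to 873 and 697 at 3 h in UTX-AID. The members were chosen with earlier results of these data known, so their counts beside the shares of all genes are descriptions. In bulk libraries, fewer cells in a state and less RNA per cell cannot be told apart.

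**Figure D2:**
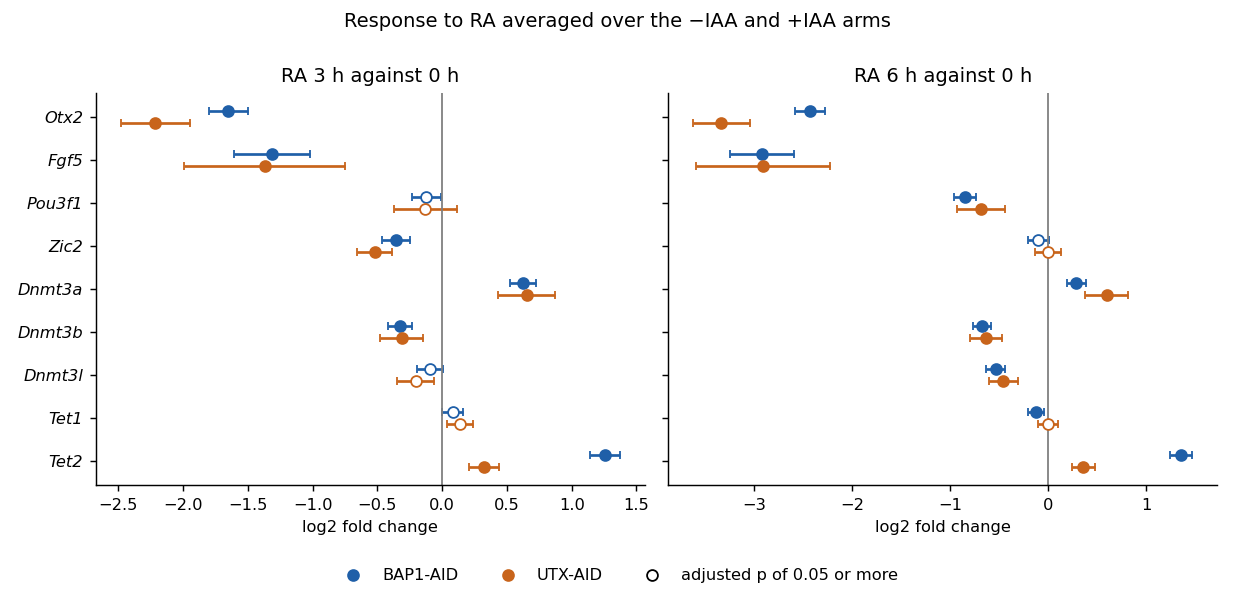
Log2 fold change of each member at 3 and 6 h of RA against 0 h, averaged over the arms, with 95% intervals; open points did not pass the test. Otx2 and Fgf5 are farthest below 0 in both clones, at −2.43 and −2.92 in BAP1-AID at 6 h, and the highest value at 6 h is that of Tet2 in BAP1-AID (1.36) and of Dnmt3a in UTX-AID (0.60).

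The fall from 3 to 6 h in UTX-AID rested on less. Pou3f1 (−0.56, edgeR adjusted p = 0.0208) lost its call without any of 6 libraries (edgeR adjusted p = 0.0507 to 0.0863) and Fgf5 (−1.54, edgeR adjusted p = 0.0228) without any of 4 (0.0736 to 0.0923), all from 3 and 6 h. Leaving out the second −IAA library of 3 h, the second −IAA library of 6 h or the second +IAA library of 3 h left 2 members called in place of 4. Dnmt3b, at −0.32, was just above the threshold (edgeR adjusted p = 0.0513) and passed in the fit without a filter on low counts (edgeR adjusted p = 0.00124).

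Levels per kilobase of the longest coding transcript order the members within a library, which CPM does not. Which transcripts were expressed was not determined, so this order and the size of ratios per kb depend on the length chosen. At 0 h in BAP1-AID, Dnmt3b (291.9 ± 15.5 CPM per kb, SD, n = 4) was followed by Dnmt3l (214 ± 18.3), Dnmt3a (58.8 ± 1.89), Zic2 (51.9 ± 2.51), Otx2 (46.9 ± 2.46), Pou3f1 (39.0 ± 1.97), Tet1 (23.4 ± 4.01), Fgf5 (6.34 ± 0.373) and Tet2 (5.75 ± 1.18). Only the neighbours Fgf5 and Tet2 overlapped, at 5.83 to 6.67 and 4.58 to 7.04 CPM per kb. In UTX-AID the order was Dnmt3l (138 ± 19.2), Dnmt3b (105 ± 12.2), Tet1 (52.0 ± 1.81), Dnmt3a (33.7 ± 4.62), Tet2 (25.9 ± 2.29), Zic2 (14.3 ± 1.01), Otx2 (11.2 ± 1.15), Pou3f1 (10.5 ± 1.51) and Fgf5 (1.52 ± 0.445), where Otx2 and Pou3f1 overlapped. In BAP1-AID the mean of Tet2 was below that of Fgf5 without IAA (4.75 and 6.20 CPM per kb) and above it with IAA (6.75 and 6.49), and in UTX-AID Tet2 was the fifth of the 9 members.

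Ratios within a library, per kb, show the shift between partners. Dnmt3b to Dnmt3a was 4.88 to 5.11 in the 4 BAP1-AID libraries at 0 h, 2.50 to 2.67 at 3 h and 2.51 to 2.59 at 6 h. In UTX-AID it was 3.06 to 3.22, 1.47 to 1.72, and 1.23 to 1.43. The ratio thus dropped within 3 h and stayed there in BAP1-AID. Dnmt3l to Dnmt3a went from 3.38 to 4.03 at 0 h down to 1.98 to 2.14 at 6 h in BAP1-AID, and from 3.55 to 4.90 down to 1.75 to 2.14 in UTX-AID. Tet2 to Tet1 went up from 0.230 to 0.259 at 0 h to 0.630 to 0.725 at 6 h in BAP1-AID, and from 0.451 to 0.539 to 0.608 to 0.696 in UTX-AID. The clones were apart at 0 h and overlapped at 6 h in this last ratio. For each ratio and clone, the 4 libraries at 6 h did not overlap the 4 at 0 h. The ratios were chosen after their values were seen, so these values are descriptions with no test.

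**Figure D3:**
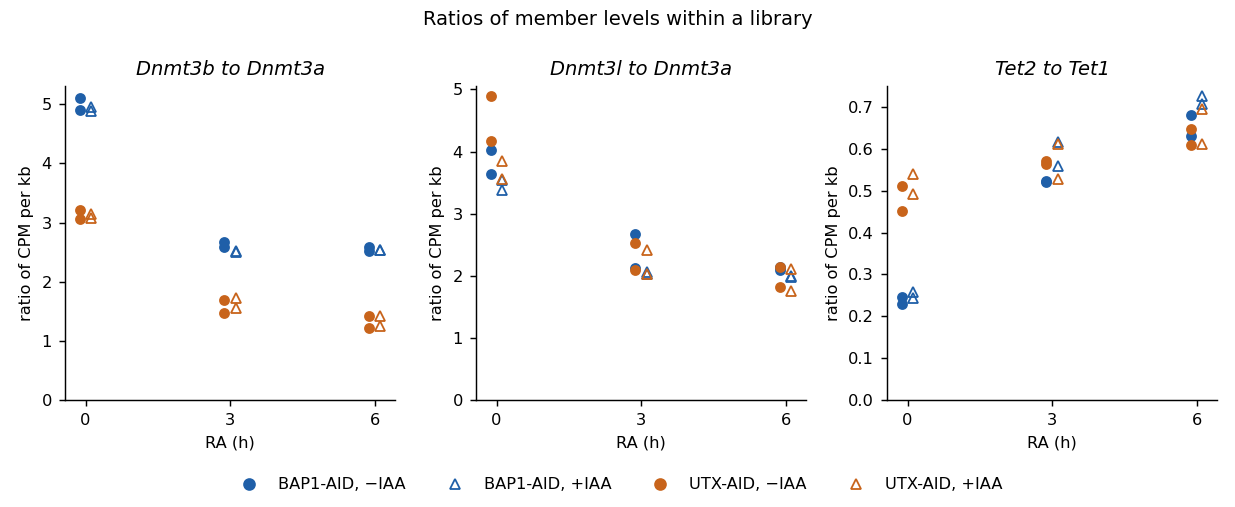
Ratio of CPM per kb between members in each library against hours of RA, on linear axes from 0. Dnmt3b to Dnmt3a and Dnmt3l to Dnmt3a are lower with RA than at 0 h in all libraries, Tet2 to Tet1 is higher in BAP1-AID from 3 h on, and in UTX-AID it reaches 0.608 to 0.696 at 6 h.

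Other genes of the same pathways were counted from lists at RA 6 h against 0 h. Over all genes tested at that step, 14.4% rose and 9.67% fell in BAP1-AID, and 6.92% rose and 5.52% fell in UTX-AID. The counts of each list are to be read against these shares, and no list was tested as a set. The lists were chosen with earlier results of these data known, so their counts are descriptions. Dnmt1 and Tet3 were named as the other members of their enzyme families. Foxd3, Lef1, Pim2, Grhl2, Tbx3, Gata6 and Tfap2c were picked by their values at this step. Each passed the test with a log2 fold change over 1 in size in both clones, so its call follows from that rule. The other genes of these lists are named after their values were seen. Of 10 genes of the DNA methylation machinery besides the members, 1 rose and 1 fell in BAP1-AID and 2 fell in UTX-AID, with medians of −0.02 and −0.03 on the log2 scale. The fallers were Cdca7, a partner of the remodeler HELLS, in both clones (−0.19 and −0.23) and the corepressor Trim28 in UTX-AID (−0.13), and the riser was the H3K36 methyltransferase Setd2 in BAP1-AID (0.19). Dnmt1, the maintenance methyltransferase, changed by 0.03 (SE 0.06, edgeR adjusted p = 0.780) and −0.03 (SE 0.04, edgeR adjusted p = 0.786). Of 9 genes of TET function and demethylation, 3 fell in BAP1-AID (Tet3, Cxxc5 and Neil2) and 1 in UTX-AID (Cxxc5), with medians of −0.17 and −0.20. Tet3, the remaining TET enzyme, went from 45.6 to 57.0 CPM at 0 h to 33.5 to 37.3 CPM at 6 h in BAP1-AID (−0.51, SE 0.07, edgeR adjusted p = 0.000195), and the change in UTX-AID was −0.28 (SE 0.11, edgeR adjusted p = 0.122).

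Of 12 further formative genes, 9 fell and 3 rose in BAP1-AID (median −0.68) and 8 fell and 2 rose in UTX-AID (median −0.56). Foxd3, a forkhead factor, went from 36.4 to 40.6 CPM at 0 h to 6.42 to 7.15 CPM at 6 h in BAP1-AID and from 8.65 to 13.3 CPM to 1.03 to 1.94 CPM in UTX-AID (log2 fold changes −2.49 and −2.93, edgeR adjusted p = 8.59e-11 and 1.65e-08). The Wnt effector gene Lef1 fell by 1.99 and 2.28, the kinase gene Pim2 by 1.79 and 1.33, and the epithelial factor gene Grhl2 by 1.53 and 1.57 on the log2 scale. The risers were Etv4 (0.33 and 0.32) and Zic5 (0.28 and 0.34) in both clones and Sox3 (0.52) in BAP1-AID, so the formative list did not move as a block.

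Of 12 naive factors, 7 rose and 3 fell in BAP1-AID (median 0.42) and 5 rose and 2 fell in UTX-AID (median 0.05). The fallers were Zfp42 in both clones, Esrrb and Tcl1 in BAP1-AID and Klf5 in UTX-AID, and Nanog, Nr0b1, Prdm14, Tbx3 and Tfcp2l1 rose in both. Tbx3, a T-box factor of the naive network, went from 5.65 to 7.76 CPM at 0 h to 20.6 to 27.7 CPM at 6 h in BAP1-AID and from 7.39 to 11.0 CPM to 20.9 to 23.2 CPM in UTX-AID. Of the 8 ESC markers, 1 rose and 3 fell in BAP1-AID and 1 rose and 4 fell in UTX-AID, with medians of −0.10 and −0.16. Nanog was the riser, and Sox2, Utf1 and Zfp42 fell in both clones and Lin28a in UTX-AID. Of 5 tested primitive streak markers 1 (Eomes) fell in BAP1-AID (median −0.38), and the median in UTX-AID was −0.09. Of the tested fibroblast markers, 2 of 4 fell in the BAP1-AID clone and 1 of 5 in the UTX-AID clone (medians −0.82 and −0.74), namely Thy1 in both and Dcn in BAP1-AID. Of 9 tested extraembryonic markers, 2 rose in BAP1-AID and 3 rose and 1 fell in UTX-AID (medians 0.57 and 1.69). Of the 10 listed, 5 averaged above 1 CPM in BAP1-AID and 4 in UTX-AID, so the medians include genes of low counts. Gata6 and Tfap2c rose in both clones, and Gata3 rose in UTX-AID (log2 fold change 4.25, SE 1.25, edgeR adjusted p = 0.0404). The keratin gene Krt18 fell in UTX-AID (−0.56, edgeR adjusted p = 0.0108) and was at −0.26 in BAP1-AID (edgeR adjusted p = 0.303). Gata4 (−0.35 and −0.45), Sox17 (−0.17 and −2.47) and Krt8 (−0.69 and −0.22) were below 0 and passed the test in neither clone. Sox7 (0.98 and 3.28, SE 1.09 and 1.46) and Cdx2 (1.00 and 2.66, SE 0.77 and 1.32) were above 0 and also passed in neither. The endoderm factor gene Gata6 went from 0.171 to 0.416 CPM at 0 h to 3.82 to 5.01 CPM at 6 h in BAP1-AID and from 0.244 to 0.950 to 1.24 to 2.19 CPM in UTX-AID, and Tfap2c from 1.64 to 2.26 CPM to 13.1 to 14.3 CPM and from 0.717 to 1.80 CPM to 6.71 to 7.33 CPM. The summed extraembryonic markers went from 13.4 to 16.4 CPM at 0 h to 27.7 to 29.9 CPM at 6 h in BAP1-AID and from 13.9 to 17.1 CPM to 18.5 to 21.4 CPM in UTX-AID, and their part in the falls of Otx2, Fgf5, Pou3f1, Dnmt3b and Dnmt3l was not tested.

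Over the 12 group means, centred within each clone, the genes whose pattern was most like that of Otx2 were Mb21d2, Sall1 and Tle4 (Pearson r = 0.973, 0.972 and 0.972 on log2(CPM + 1), of 12329 genes). Those most like Fgf5 were Pim2 (0.985), Crocc2 (0.983) and Smad3 (0.981). Among the members, Dnmt3b was the most like each of them (r = 0.952 with Otx2 and 0.976 with Fgf5), and Zic2 (0.290 and 0.155) and Tet1 (0.0414 and 0.181) were far from both. The 12 points share the RA times and the libraries, these genes were chosen by this measure, and the values are descriptions.

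With IAA, 3 of the 9 members were called in BAP1-AID when the arms were averaged over the 3 times, Tet2 and Tet1 higher and Dnmt3l lower, where 36.1% of all genes were called. Tet2 was 1.38-fold higher with IAA (log2 fold change 0.47, SE 0.04, edgeR adjusted p = 4.98e-06), with the +IAA libraries above the −IAA libraries at each time. Tet1 was 1.27-fold higher (0.35, SE 0.03, edgeR adjusted p = 4.86e-06), and its 6 +IAA libraries lay above its 6 −IAA libraries over all times. Dnmt3l was 1.13-fold lower (−0.17, SE 0.04, edgeR adjusted p = 0.00338), with the arms apart at each time. The other 6 members lay between −0.08 and −0.02. Without the first −IAA library of 3 h, 6 members were called in place of 3: Dnmt3b (−0.07), Otx2 (−0.13) and Zic2 (−0.10) passed as well.

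After GC and length correction, 28.4% of all genes and 4 members were called, and only Tet2 was among the 3 above (0.31, edgeR adjusted p = 0.00152). Tet1 turned to −0.05 (edgeR adjusted p = 0.364) and Dnmt3l to 0.01 (edgeR adjusted p = 0.736). The transcript of Tet1 has the lowest GC content of the 9 members at 43.7%, that of Tet2 has 47.4%, and those of Pou3f1 and Zic2 have 63.9% and 61.8%. Otx2 (−0.15, edgeR adjusted p = 0.0250), Dnmt3b (0.10, edgeR adjusted p = 0.0144) and Zic2 (0.10, edgeR adjusted p = 0.0435) passed with the correction. Degradation of BAP1 and the GC trend of the arms cannot be told apart for any member, Tet2 included, since the correction is only a fitted estimate of the trend. The libraries hold no untagged line with IAA.

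**Figure D4:**
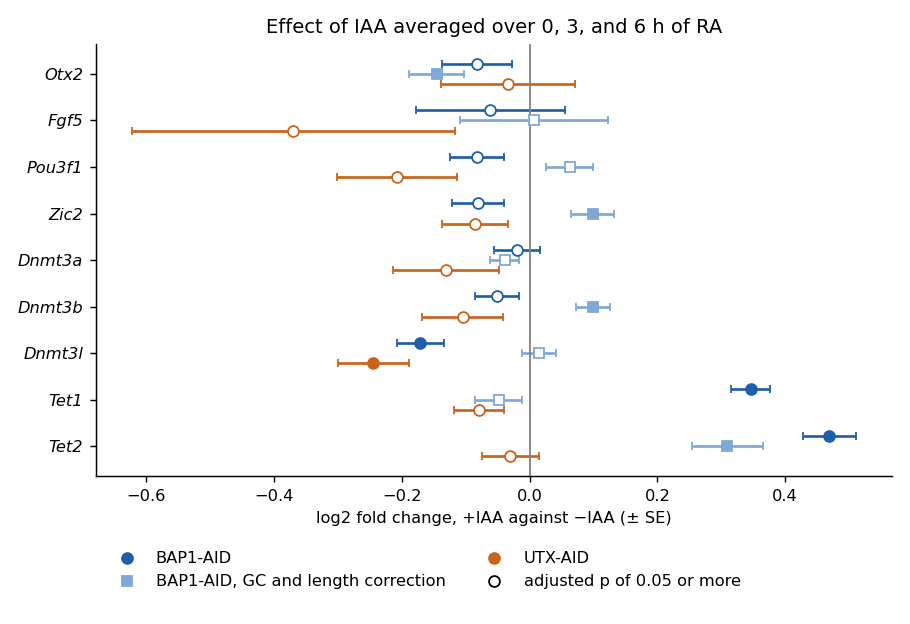
Log2 fold change with IAA against without it, averaged over 0, 3, and 6 h of RA, with SE, for BAP1-AID before and after GC and length correction and for UTX-AID; open symbols did not pass the test. Tet1 in BAP1-AID goes from 0.35 to −0.05 with the correction, and Tet2 from 0.47 to 0.31.

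In UTX-AID, 1 member was called with IAA, where 2.62% of all genes were. Dnmt3l was 1.18-fold lower (log2 fold change −0.24, SE 0.06, edgeR adjusted p = 0.0320), with the arms apart at 0 and 6 h and overlapping at 3 h. The call was lost without any of 7 libraries (−0.25 to −0.20, edgeR adjusted p = 0.0584 to 0.0918), namely in the −IAA arm the second at 0 h, the second at 3 h and the first at 6 h, and in the +IAA arm both at 0 h and the second at 3 and at 6 h. Without the first −IAA library of 3 h, Pou3f1 passed as well (−0.30, edgeR adjusted p = 0.0325), against −0.21 (SE 0.09, edgeR adjusted p = 0.296) with all libraries. The other 7 members lay between −0.37 (Fgf5, SE 0.25) and −0.03 (Tet2 and Otx2).

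The response of the members to RA was not shown to change with IAA in either clone. In edgeR's test of the interaction, 0 of 9 members were called at 3 or 6 h in BAP1-AID or UTX-AID, where 0% and 0.153% of all genes were called in the BAP1-AID clone and 0.0123% and 0% in the other. At an unadjusted p under 0.05, 1 member passed at each time in BAP1-AID, 1 at 3 h in UTX-AID and 0 at 6 h in UTX-AID, and 1176, 1615, 671 and 558 of all genes did, while DESeq2 called 143, 304, 3 and 1 of all genes. They were Tet1 at 3 h in BAP1-AID (−0.30, 95% interval −0.46 to −0.13, edgeR adjusted p = 0.305), Otx2 at 6 h in BAP1-AID (−0.42, −0.71 to −0.12, edgeR adjusted p = 0.276) and Zic2 at 3 h in UTX-AID (−0.39, −0.66 to −0.12, edgeR adjusted p = 1). DESeq2 called Tet1 at 3 h in BAP1-AID (−0.31, adjusted p = 0.000674) and no other member in these comparisons. Tet1 also passed in edgeR without the second −IAA library of 3 h (−0.32, adjusted p = 0.0148), and Otx2 at 6 h without either −IAA library of 3 h (−0.42 and −0.41, edgeR adjusted p = 0.0224 and 0.0222). The interval of Fgf5 spanned −0.71 to 0.46 at 3 h and −0.86 to 0.41 at 6 h in BAP1-AID, and −0.93 to 1.54 at 3 h and −1.44 to 1.20 at 6 h in UTX-AID, so changes of that size were not detectable for this gene.

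Before RA and without IAA, all 9 members differed between the clones, where 25.4% of 16816 genes were higher in UTX-AID and 27.2% lower. Tet2 was 5.30-fold higher in UTX-AID (log2 fold change 2.41, SE 0.08, edgeR adjusted p = 2.58e-16) and Tet1 2.63-fold higher (1.39, SE 0.07, edgeR adjusted p = 5.99e-14). All 4 formative markers were lower, Otx2 4.30-fold (−2.10, SE 0.14), Zic2 3.76-fold (−1.91, SE 0.08), Pou3f1 3.56-fold (−1.83, SE 0.14) and Fgf5 3.52-fold (−1.82, SE 0.31), with an edgeR adjusted p of at most 2.32e-05. The 3 genes of de novo methylation were lower too, Dnmt3b 2.82-fold (−1.50, SE 0.11), Dnmt3a 1.76-fold (−0.82, SE 0.13) and Dnmt3l 1.51-fold (−0.59, SE 0.09). Over a log2 fold change of 1, 2 members were higher (13.5% of all genes) and 5 lower (7.34%). At 0, 3, and 6 h alike, the 4 libraries of one clone did not overlap the 4 of the other for any member. How many of all genes were apart in this way was not counted, so this is not shown to be particular to the members. With GC and length correction all 9 kept their direction and passed the test, with Tet1 at 0.67 and Dnmt3a at −0.42. Clone, tag and any batch of the clones cannot be told apart.

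On the log2 scale, the RA response differed between the clones for Tet2 and Otx2, which started from unequal levels. In CPM, mean Tet2 went from 56.5 at 0 h to 145.9 at 6 h in BAP1-AID and from 254.6 to 324.6 in UTX-AID. Mean Otx2 went from 173.1 to 32.2 CPM and from 41.4 to 4.10 CPM, so its fall in CPM was larger in BAP1-AID. The rise of Tet2 was smaller in UTX-AID by 0.93 on the log2 scale at 3 h (log2 difference −0.93, 95% interval −1.09 to −0.77, edgeR adjusted p = 2.64e-07) and by 1.00 at 6 h (−1.16 to −0.84, edgeR adjusted p = 2.87e-08). The fall of Otx2 was deeper in UTX-AID at 6 h (−0.91, −1.22 to −0.60, edgeR adjusted p = 0.000831), and at 3 h the difference was −0.56 (−0.85 to −0.27, edgeR adjusted p = 0.0678). That value at 3 h passed with DESeq2 (adjusted p = 0.0174), with GC and length correction (−0.57, edgeR adjusted p = 0.0367) and without any of 5 libraries, the first −IAA library of 3 h in BAP1-AID and, in UTX-AID, the first −IAA library of 0 h, the 2 −IAA libraries of 6 h and the second +IAA library of 3 h (−0.64 to −0.55, edgeR adjusted p = 0.0157 to 0.0479). Of all genes, 0.755% were called at 3 h and 2.71% at 6 h. The intervals of the other 7 members at 3 h lay within −0.69 and 0.59 (Fgf5), and Dnmt3b differed by 0.02 (−0.20 to 0.23). At 6 h the difference of Dnmt3a was 0.31 (0.03 to 0.59, edgeR adjusted p = 0.287), and it passed without the second −IAA library of 0 h in UTX-AID (0.46, edgeR adjusted p = 0.0343).

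The effect of IAA also differed between the clones for 2 members, where 25.9% of all genes were called: Tet2 (log2 difference −0.52, 95% interval −0.65 to −0.38, edgeR adjusted p = 1.94e-06) and Tet1 (−0.44, −0.55 to −0.33, edgeR adjusted p = 1.74e-06). With the GC and length correction the difference was −0.33 for Tet2 (edgeR adjusted p = 0.00367) and −0.00092 for Tet1 (edgeR adjusted p = 1), while Dnmt3l (−0.28, edgeR adjusted p = 0.00341) and Zic2 (−0.18, edgeR adjusted p = 0.0370) passed. Without it, the other 7 members differed by −0.33 (Fgf5, −0.92 to 0.25) to 0.03 (Otx2, −0.22 to 0.28), and without the first −IAA library of 3 h in UTX-AID 4 members were called in place of 2.

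Counts of several members could include reads of neighbours, because antisense genes overlap Dnmt3a (Dnmt3aos), Dnmt3b (Dnmt3bos), Dnmt3l (Aire), Otx2 (Otx2os1), Pou3f1 (Gm2164), Zic2 (2610035F20Rik) and Tet2 (Gm42567), and whether the counting used strand is not given in the sources used here. Genes on the same strand overlap Tet1 (Gm48353 and Gm26479), Dnmt3b (Gm75128) and Otx2 (Gm49154), and strand would not separate their reads.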

How the data were processed

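PolyA RNA-seq libraries of BAP1-AID and UTX-AID ESCs were compared. The authors aligned reads to mm39 with HISAT2 2.2.1, handled alignments with SAMtools 1.19 and deposited estimated counts per gene from StringTie 2.2.1, written as whole numbers (26264 genes, 24 libraries). The annotation, strandedness and read length are not given in the sources used here. Groups were taken from the labels. The members and gene lists were chosen with earlier results of these data known. All 9 members are named, with Dnmt1 and Tet3, and up to 4 genes a list that passed the test with a log2 fold change over 1 in size at 6 h in both clones. Other genes of small counts were named after their values were seen.

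Counts were tested with edgeR 4.0.16 (R 4.3.3; TMM, filterByExpr at 10 counts and 15 in total, quasi-likelihood test), with 1 coefficient per group, for the 12 libraries of each clone and, between clones, for all 24. Adjusted p-values are Benjamini-Hochberg values over all genes of the fit, called under 0.05. CPM are scaled by TMM over the 24 libraries. Intervals are 95% t intervals from the fit. The biological coefficient of variation was 11.6% to 11.9%. Replicates of a group had a Pearson r of 0.982 to 0.986, and 1.62% to 2.14% of genes had identical values, so none was treated as the same library. The fits were run on simulated counts that held no GC trend and no replicate effect, so this checks the code and not the results given here.

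Alternatives were DESeq2 1.42.0, RLE size factors, no filter, a replicate block, correction for GC content and transcript length (splines with 5 degrees of freedom, fitted per library on the longest coding GENCODE transcript, matched for 91.0% of genes), all libraries in one fit, each IAA arm alone, and leaving out each library. Figures were drawn with matplotlib 3.10.9.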

Additional observations from a re-analysis of the deposited data

Results flagged for a closer look

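The RA response of a pair of members differed between the clones in the test of the difference itself, given as UTX-AID minus BAP1-AID on the log2 scale. The rise of Tet2 was smaller in UTX-AID by −0.93 at 3 h (edgeR adjusted p = 2.64e-07) and by −0.9995 at 6 h (edgeR adjusted p = 2.87e-08), from a starting level that was higher in UTX-AID. The fall of Otx2 was deeper in UTX-AID by −0.91 at 6 h (edgeR adjusted p = 0.000831), from a starting level that was lower.

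The IAA effect differed between the clones for 2 of the 9 members, where 25.9% of all genes were called, so the count is near that of all genes. These were Tet1 (−0.44, edgeR adjusted p = 1.74e-06) and Tet2 (−0.52, edgeR adjusted p = 1.94e-06). For Tet1 the difference was −0.00092 after GC and length correction, and for Tet2 it was −0.33 (edgeR adjusted p = 0.00367). The part of the GC trend of the BAP1-AID arms in these values was not tested beyond this correction.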

How the results depend on the processing

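Of 84 member values, 57 were called, and 2 called values changed sign under any setting, those of Tet1 and Dnmt3l with IAA in BAP1-AID after correction for GC content and length. The 84 hold all values of the RA comparisons, of IAA in BAP1-AID and of the clones at 0 h. From the other comparisons they hold only values with an unadjusted edgeR p under 0.05. The set is thus partly chosen by p, and its shares are not those of all member values. Apart from settings that leave out a library, 605 recomputed values kept direction and side of the threshold, 32 passed it newly, 25 no longer passed it and 18 changed sign. The cause was not tested, except that each arm alone has fewer samples.

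With −IAA libraries only, the members called fell from 8 to 2 for RA 6 h against 3 h in BAP1-AID, from 6 to 2 for 3 h against 0 h in UTX-AID and from 4 to 0 for 6 h against 3 h in UTX-AID, while calls over all genes fell from 1278 to 54, from 1343 to 494 and from 272 to 7. DESeq2 called 1 member for the interaction at 3 h in BAP1-AID, against 0. The difference between clones in the RA 3 h response called 2 members, against 1, with DESeq2, without the filter, with the replicate block, with the GC correction and with both. The difference in the IAA effect called 4, against 2, with the GC correction and the replicate block together.

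Values that changed sign were Tet1 for RA 3 h in BAP1-AID with +IAA libraries only (−0.0688), Tet2 for 6 h against 3 h there with −IAA libraries only (−0.0744), and, in UTX-AID at 6 h, Zic2 with DESeq2 or RLE size factors (0.00016) and with −IAA libraries only (0.0194), and Tet1 with −IAA libraries only (0.0625). The IAA effect in BAP1-AID turned with the GC correction for Dnmt3b (0.10, and 0.10 with the replicate block), Dnmt3l (0.0150 and 0.0149), Fgf5 (0.00685 and 0.0128), Pou3f1 (0.0630 and 0.06285), Zic2 (0.10 and 0.10) and Tet1 (−0.0487 and −0.0481).

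Leaving out each library, the members called ranged from 3 to 6 for IAA in BAP1-AID, from 0 to 2 for IAA in UTX-AID, from 0 to 1 for either interaction in BAP1-AID, from 2 to 6 for RA 6 h against 3 h in UTX-AID, from 1 to 2 for the clone difference at 3 h and from 2 to 4 for that in the IAA effect. Small values changed sign for Dnmt3a (−0.0493 to 0.0287) and Fgf5 (−0.15 to 0.0698) with IAA in BAP1-AID, and in UTX-AID for Pou3f1 at 3 h (−0.31 to 0.0122), Zic2 (−0.0543 to 0.0528) and Tet1 (−0.0496 to 0.0455) at 6 h, and Dnmt3a from 3 to 6 h (−0.18 to 0.10).

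The labels tie the replicate numbers to no shared culture or day, and not every pair of groups correlated over 0.1, so the replicate block is not used for the main values: deviations of same-numbered libraries correlated at −0.142 to 0.219 in BAP1-AID (1 of 15 pairs of groups over 0.1) and 0.0070 to 0.210 in UTX-AID (10 of 15). All 15 were above 0 in UTX-AID, where the correlation of level with GC content was 0.0534 to 0.129 in the libraries numbered 1 and −0.190 to −0.0016 in those numbered 2, a hint from the data that the numbers share an effect in this clone. With the replicate block, Tet1 at 3 h (0.14) and Dnmt3b (−0.32) and Dnmt3l (−0.25) from 3 to 6 h passed in UTX-AID. Over all genes, DESeq2 called 717 for IAA in UTX-AID, against 427, and 460 for RA 6 h against 3 h there, against 272, and the replicate block called 813 and 507. Depth limits Fgf5 in UTX-AID at 6 h, on 13 to 32 counts, and Gata6 in BAP1-AID at 0 h, on 9 to 21 counts.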
